A study of Homo sapiens with 5 samples.

Results

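The epidermal differentiation complex is a cluster of genes on chromosome 1 that build the outer layer of skin. It was taken here as the 66 protein-coding genes, of 20037 in all, whose span lies inside a 1.7 Mb interval (GRCh38) between S100A10 and INTS3. The first member, S100A11, starts at 152032506 and the last, NPR1, ends at 153693992. They comprise 19 late cornified envelope (LCE) genes, 11 small proline-rich (SPRR) genes, 7 filaggrin-type genes, 10 other envelope or epidermal genes, 15 S100 genes and 4 other genes. The interval was chosen because late envelope genes held H4K12la peaks in dexamethasone lists alone, in these same lists. H4K12la values are therefore given as a description, without a test.

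The cells were 786-O, a cell line established from a human renal cell carcinoma. CUT&Tag, which tethers a transposase to an antibody and so tags the DNA near the bound protein, was used for chromatin. H4K12la, the lactyl group carried by lysine 12 of histone H4, was profiled in untreated cells (control, 2 libraries) and in cells given 10 µM dexamethasone for 48 h (2 libraries). The glucocorticoid receptor (GR), the transcription factor that dexamethasone activates, was profiled in 1 library from dexamethasone-treated cells. All 5 libraries carry the same batch label, each list holds the peaks of 1 library, and the labels do not say that replicates came from separate cultures. The control lists held 126594 and 112409 H4K12la peaks on the autosomes, X and Y, those of dexamethasone 80721 and 67582, and that of GR 8065. Nothing in the files gives read depth, heights and peak numbers are unscaled, and depth and treatment cannot be told apart in a difference between lists.

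In skin, keratinocytes switch these genes on late, as they leave the basal layer. Involucrin and envoplakin-type scaffolds are cross-linked by transglutaminases to loricrin, SPRR and LCE proteins to form the cornified envelope, and filaggrin bundles keratin filaments beneath it. S100 proteins are small calcium-binding proteins with EF-hand motifs, several of which are made in many cell types, kidney carcinoma cells among them.

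The control lists placed H4K12la at more kidney than keratinocyte marker genes. A peak within 1 kb of a gene end was listed for 4 and 5 of 7 kidney markers in the control lists and for 5 and 2 in the dexamethasone lists. In the control lists these were 57.1% and 71.4%, near the 63.4% and 63.3% of all protein-coding genes. In the dexamethasone lists they were 71.4% and 28.6%, against 39.7% and 33.1% of all genes. PAX8, a kidney lineage factor, had heights of 140 and 119 in control libraries and, after dexamethasone, 27 and 18, whereas PAX2 had no end peak in any list. CA9, a carbonic anhydrase gene of renal carcinoma, went the other way and was dexamethasone-only, with no control peak and heights of 29 and 26. Of 7 keratinocyte markers, KRT5, KRT14, KRT1, TP63 and DSG3 had no end peak in any of the 4 lists. KRT10 had heights of 31 and 27 in control libraries and no dexamethasone peak, and COL17A1 had 16 in control replicate 1 only. The 7 together had end peaks at 2 and 1 genes in control libraries (28.6% and 14.3%) and, after dexamethasone, at 0 and 0. Peaks at gene ends are a reading of chromatin and not of expression.

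The interval split into a sparse centre and a densely marked upper end. It held 56 and 55 H4K12la peaks in the control lists and 58 and 48 in the dexamethasone lists. The numbers overlapped between the groups, at 55.5 ± 0.707 (SD, n = 2) in control and 53 ± 7.07 (SD, n = 2) in dexamethasone libraries, a ratio of 0.955. As a share of each list these peaks were 0.0442% and 0.0489% in control libraries and, after dexamethasone, 0.0719% and 0.071%. Calculated from those shares, or from the 67582 highest peaks of each list, the ratio was 1.53 or 1.24. It was 0.654 and 0.15 when peaks of height 20 or more and 30 or more were counted. Ratios of the whole lists at those heights are not given here.

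From TCHHL1 to S100A7, a stretch of 1.44 Mb with 52 of the members and here called the envelope core, the control lists held 18 and 19 peaks and the dexamethasone lists 35 and 27. Both dexamethasone values lay above both control values, at 31 ± 5.66 (SD, n = 2) against 18.5 ± 0.707 (SD, n = 2), a ratio of 1.68. The core's peaks were low, with median summit heights of 17 and 17 in control libraries and, after dexamethasone, 16 and 17, against medians of 24, 26, 23 and 24 over the whole lists. From S100A6 to NPR1, a stretch of 202 kb with 13 members, the order was the opposite. It held 33 and 31 peaks in control libraries and, after dexamethasone, 21 and 20, with median heights of 40 and 52 against 27 and 26.5. The ratio of peak numbers there was 0.641, near the 0.621 of the whole lists. The borders of the core were set after these values were seen.

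**Figure D1:**
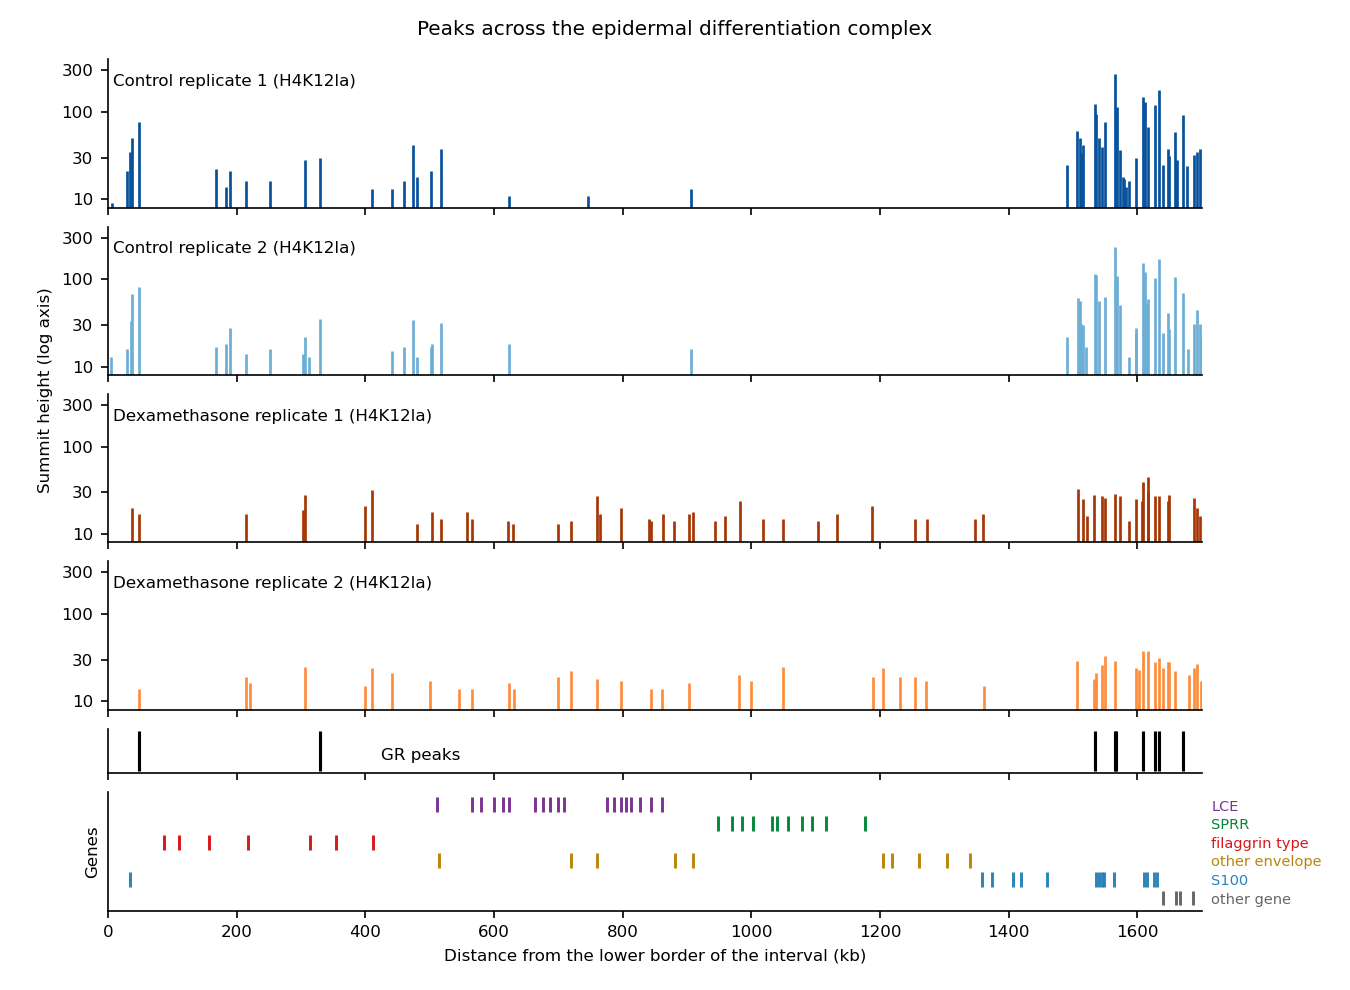
Peaks along the interval, with the distance from its lower border (kb) on the x axis and the summit height of each H4K12la peak (log axis) on the y axis of each library's track. Ticks below mark GR peaks and the member genes by family. High control peaks sit at the 2 outer parts of the map, and the centre, over the LCE and SPRR genes, holds more peaks in the 2 dexamethasone tracks than in the 2 control tracks.

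Within the core the excess of dexamethasone peaks lay over the LCE and SPRR genes. The LCE stretch held 6 and 6 peaks in control libraries and, after dexamethasone, 15 and 11. The stretch from SMCP to LORICRIN, with the SPRR and involucrin genes, held 1 and 1 against 13 and 9. The filaggrin-type stretch had the reverse order, with 10 and 11 peaks in control libraries and, after dexamethasone, 5 and 6, and the stretch from PGLYRP3 to S100A7 held 1 and 1 against 2 and 1. The groups did not overlap in the LCE, SPRR and filaggrin-type stretches and met at 1 peak in the last. Over the whole lists the ratio of dexamethasone to control peaks was 0.621, so the filaggrin-type order was also that of the lists.

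**Figure D2:**
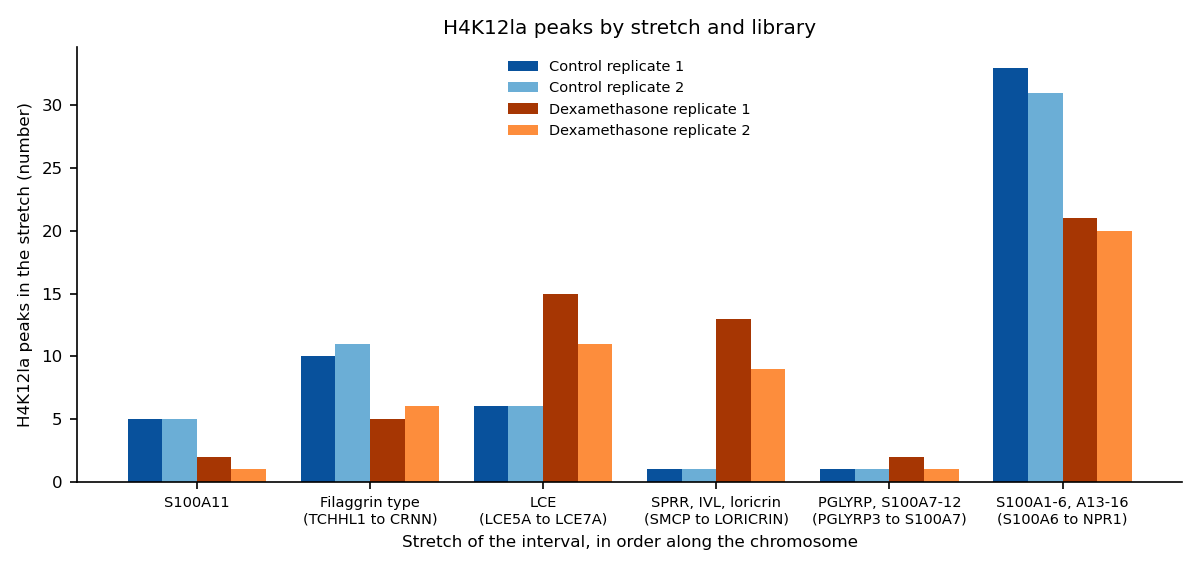
Number of H4K12la peaks (y axis) in each of 6 stretches of the interval (x axis, in chromosome order), 1 bar per library. Dexamethasone bars are the taller ones in the LCE stretch (15 and 11 against 6 and 6) and the SPRR stretch (13 and 9 against 1 and 1), and control bars in the filaggrin-type stretch and the stretch from S100A6 to NPR1.

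Gene ends were compared through windows of 1 kb on either side of both ends of the gene span. A gene was called dexamethasone-only with a peak there in both dexamethasone lists and neither control list, and control-only with the reverse. Of the 66 members, 7 (10.6%) were dexamethasone-only, and of all protein-coding genes 0.764%. The control-only members numbered 1 (1.52%), against 18.8% of all genes, the members in all 4 lists 9 (13.6%), against 23.6%, and the members in no list 38 (57.6%), against 28.5%. Taken list by list, 16 and 15 members had an end peak in the control lists, against 63.4% and 63.3% of all genes, and 23 and 21 in the dexamethasone lists, against 39.7% and 33.1%. The interval was selected on this contrast, so nothing is read from these shares. All 7 dexamethasone-only members lay in the core, where 38 of 52 members had no end peak in any list. Their peaks were low, at 13 to 22, where the lowest heights in the whole dexamethasone lists were 11 and 12. With peaks of height 20 or more there was 1 dexamethasone-only member, CRNN, and with peaks of 30 or more there was 0. With the 67582 highest peaks of each list there were 4, namely CRNN, LCE1D, LCE7A and S100A9. Shares of all genes under these cutoffs are not given here, so the counts do not compare members with all genes.

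The LCE genes encode small proteins added to the envelope late in its assembly. Of 19, 5 were dexamethasone-only (LCE3E, LCE2A, LCE1D, LCE6A and LCE7A), 1 was in all 4 lists (LCE3A) and 13 had no end peak. LCE1D (gene ID 353134, chromosome 1, 152796721 to 152798181) had heights of 20 and 17 in dexamethasone replicates 1 and 2 and no peak in control. Its peaks spanned 152796311 to 152797257 and 152796502 to 152797224, with summits 158 and 145 bp downstream of the transcription start, 13 bp apart. LCE6A had heights of 14 and 14, with summits 19 bp apart and 940 and 921 bp downstream of its start, near the far end of the gene.

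LCE3E had heights of 15 and 14, with summits 836 and 652 bp downstream of the start. LCE2A had 13 and 19, with summits 721 and 1357 bp downstream. In LCE7A the heights were 17 and 14, but the peaks of the replicates, at 152861875 to 152862265 and 152860961 to 152861721, did not overlap. LCE3A had 11 and 18 in control libraries and, after dexamethasone, 14 and 16, so that its groups overlapped. Peaks of both dexamethasone libraries thus covered the start base in LCE1D alone among the 5 dexamethasone-only LCE genes. In LCE3E, LCE2A and LCE6A, which are short, peaks of both libraries reached within 1 kb of the start without covering it. With windows of 1 kb around the transcription start alone, 5 members of the interval were dexamethasone-only. LCE genes are close copies of each other, and how reads that fit several copies were handled is not given in the sources used here.

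**Figure D3:**
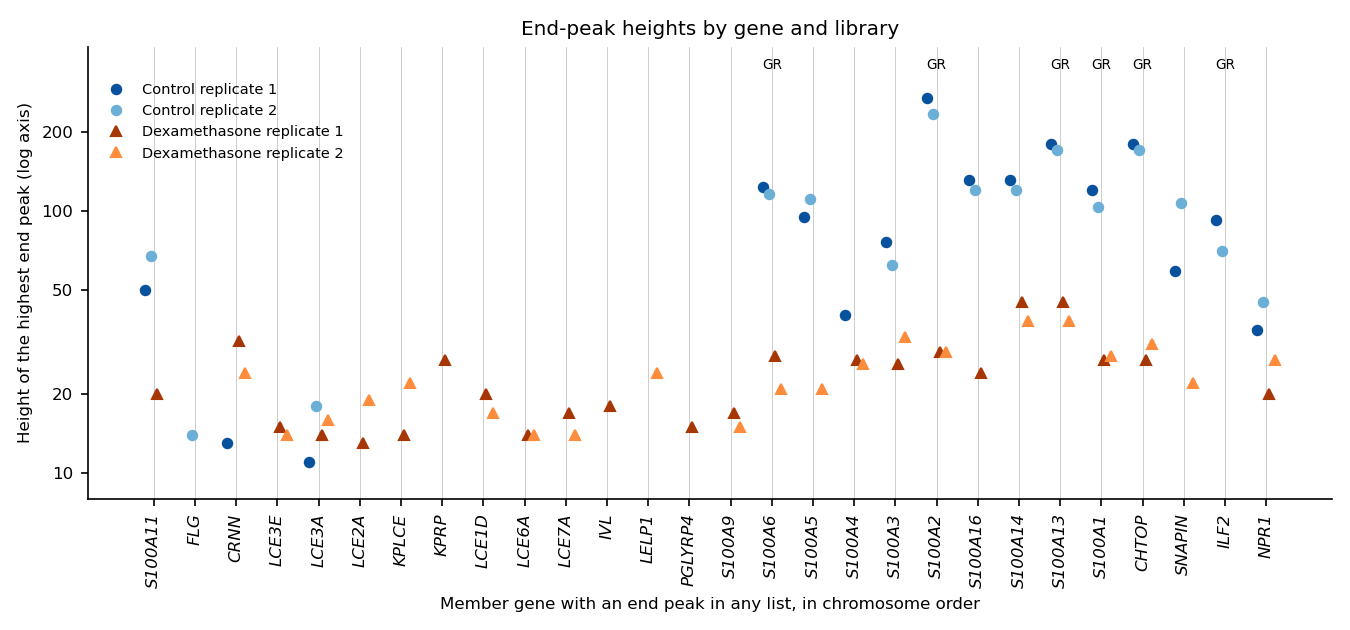
Height of the highest H4K12la peak within 1 kb of either gene end (y axis, log axis) for the 28 members with an end peak in any list (x axis, chromosome order), 1 point per library, with GR above genes that had a GR peak there. From CRNN to S100A9 the points are mostly dexamethasone libraries at 13 to 32, and from S100A6 on the control points, at 35 to 269, lie above the dexamethasone points.

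The SPRR genes encode proline-rich cross-bridging proteins of the envelope. None of the 11 had an end peak in any of the 4 lists, SPRR1B among them, although peaks lay between them. One dexamethasone-only region lay at 152981193 to 152982587, 1494 bp upstream of SPRR1A, with heights of 24 and 20 and summits 7 bp apart. Another lay at 153048994 to 153050224, 5896 bp from SPRR2A, with heights of 15 and 25. SPRR2G held a dexamethasone-only region inside its span, at 153188018 to 153188829, with heights of 21 and 19. Its summits were at -37520 and -37590 bp from the SPRR2G start used here, so the region lies far upstream of that start within a long gene span. The single region of the SPRR stretch in both control lists and neither dexamethasone list lay 1961 bp from IVL, with heights of 13 and 16.

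Filaggrin-type genes encode large repeat proteins of the granular layer and hair follicle. None of the 7 was control-only or dexamethasone-only, and TCHHL1, TCHH, RPTN and FLG2 had no peak at an end or inside in any list. Filaggrin (FLG, gene ID 2312, chromosome 1, 152302165 to 152325239) had an end peak of height 14 in control replicate 2 only, and a dexamethasone replicate 1 peak of height 19 overlapped it just beyond the window. A region inside FLG, at 152305768 to 152307053, had peaks in each of the 4 lists, of heights 28 and 22 in control libraries and, after dexamethasone, 28 and 25. In HRNR, the hornerin gene, the region at 152213878 to 152215258 had heights of 16 and 14 in control libraries and, after dexamethasone, 17 and 19. Dexamethasone values were above both control values at HRNR and overlapped them at FLG. CRNN, the cornulin gene, had 13 in control replicate 1, none in control replicate 2 and 32 and 24 in dexamethasone libraries.

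Among the other envelope genes, KPLCE was dexamethasone-only, with heights of 14 and 22. Its peaks, at 152718904 to 152719859 and 152719189 to 152720017, covered the transcription start, with summits at -160 and 139 bp from it. KPRP, the keratinocyte proline-rich protein gene, held a dexamethasone-only region inside the gene, at 152759584 to 152761146, with heights of 27 and 18. Involucrin (IVL), the scaffold on which the envelope is built, had a peak of height 18 in dexamethasone replicate 1 only, and so did PGLYRP4, a peptidoglycan-binding protein gene, with 15, and the sperm protein gene SMCP, with 14 inside the gene. LELP1 had 24 in dexamethasone replicate 2 only. Loricrin (LORICRIN), a main protein of the envelope, had no peak at an end or inside in any list. In all, 13 members (19.7%, against 3.9% of all genes) had peaks in 1 or both dexamethasone lists and no control list, at an end or inside. For 7 members a peak lay inside the gene in both dexamethasone and neither control list (10.6%, against 1.51% of all genes). The reverse held for 3, S100A6, S100A1 and ILF2 (4.55%, against 7.74% of all genes), and 35 (53%, against 17.9%) had no peak inside in any list.

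S100A9 and S100A8 encode the subunits of calprotectin, a protein of inflamed epithelium and myeloid cells. S100A9 was dexamethasone-only, with heights of 17 and 15, but its peaks lay at 153360437 to 153361163 and 153361648 to 153362614 and did not overlap. Their summits were 3231 and 4197 bp downstream of the start, beyond the end of the gene. S100A8, S100A12, S100A7 and S100A7A had no end peak in any list. If both libraries' peaks had to lie in the same region, LCE7A and S100A9 dropped out and 5 dexamethasone-only members were left.

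From S100A6 on, the S100 genes carried the highest peaks of the interval. S100A2 (gene ID 6273, chromosome 1, 153561108 to 153565844), which encodes a calcium-binding protein of epithelial cells, had 269 and 234 in control libraries and, after dexamethasone, 29 and 29. S100A13, which takes part in the release of growth factors that lack a signal sequence, shares its start region, at 153633553 to 153634518, with CHTOP. There the heights were 180 and 170 in control libraries and, after dexamethasone, 27 and 31. For S100A14 and S100A13 the highest end peaks of control and dexamethasone lists were different peaks, which the plot of end-peak heights sets side by side. The highest control peak at S100A14, with 131 and 120, lay in a window shared with S100A16, in a region with no dexamethasone peak. The highest dexamethasone peak of both genes, with 45 and 38, lay at 153616845 to 153618217, upstream of S100A14 and at the far end of S100A13, where the control heights were 68 and 59. Within each of these regions that had peaks in all 4 lists, the control values lay above the dexamethasone values without overlap.

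S100A6, the calcyclin gene, had 123 and 116 in control libraries and, after dexamethasone, 28 and 21, where the peaks of the replicates lay at opposite ends of the gene. S100A1 had 120 and 103 in control libraries and, after dexamethasone, 27 and 28. S100A3 had 76 and 62 against 26 and 33. S100A5 had 95 and 111 in control and 21 in dexamethasone replicate 2 only, through a window shared with S100A6. S100A16 had end peaks of 131 and 120 in control, over its own start and in a window shared with S100A14. Its only dexamethasone end peak, of 24 in replicate 1, was at the opposite end of the gene. A region inside S100A16, at 153607957 to 153609533, had heights of 147 and 154 in control libraries and, after dexamethasone, 39 and 38. S100A4, known for its part in cell motility, had 40 in control replicate 1, none in control replicate 2 and 27 and 26 in dexamethasone libraries, with dexamethasone summits at 414 and -16 bp from the start. S100A11, which stands apart at the lower border, had 50 and 67 in control, 20 in dexamethasone replicate 1 and none in dexamethasone replicate 2.

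Of the 4 other genes at the upper border, ILF2 (gene ID 3608, chromosome 1, 153661788 to 153670993), which encodes an RNA-binding nuclear factor, was the control-only member, with heights of 92 and 70. Without dexamethasone replicate 1 or replicate 2 there were 3 control-only members each, and without control replicate 1 there were 2. CHTOP encodes a protein of messenger RNA export, SNAPIN a protein that binds SNARE complexes and NPR1 the receptor of atrial natriuretic peptide. SNAPIN had 59 and 107 in control and 22 in dexamethasone replicate 2 only. NPR1 had 35 and 45 against 20 and 27 at its far end, with summits 14752 to 15002 bp downstream of the start. Near its start, the region at 153677654 to 153678592 had 24 and 16 in control libraries and no dexamethasone peak. Dexamethasone replicate 2 alone had a further peak there, of height 20, with its summit 977 bp downstream.

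Of the 9 members in all 4 lists, both dexamethasone heights lay below both control heights in 8, and above them in 0, taking the highest end peak of each list wherever it lay. Among all genes in all 4 lists these shares were 82.2% and 5.53%. LCE3A was the exception. The nearest genes beyond the borders, S100A10 below and INTS3 above, were both control-only, with heights of 70 and 80 and of 47 and 37. Of the 66 members, 14 shared a window with another gene, 10 of them among the 14 members outside the core.

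**Figure D4:**
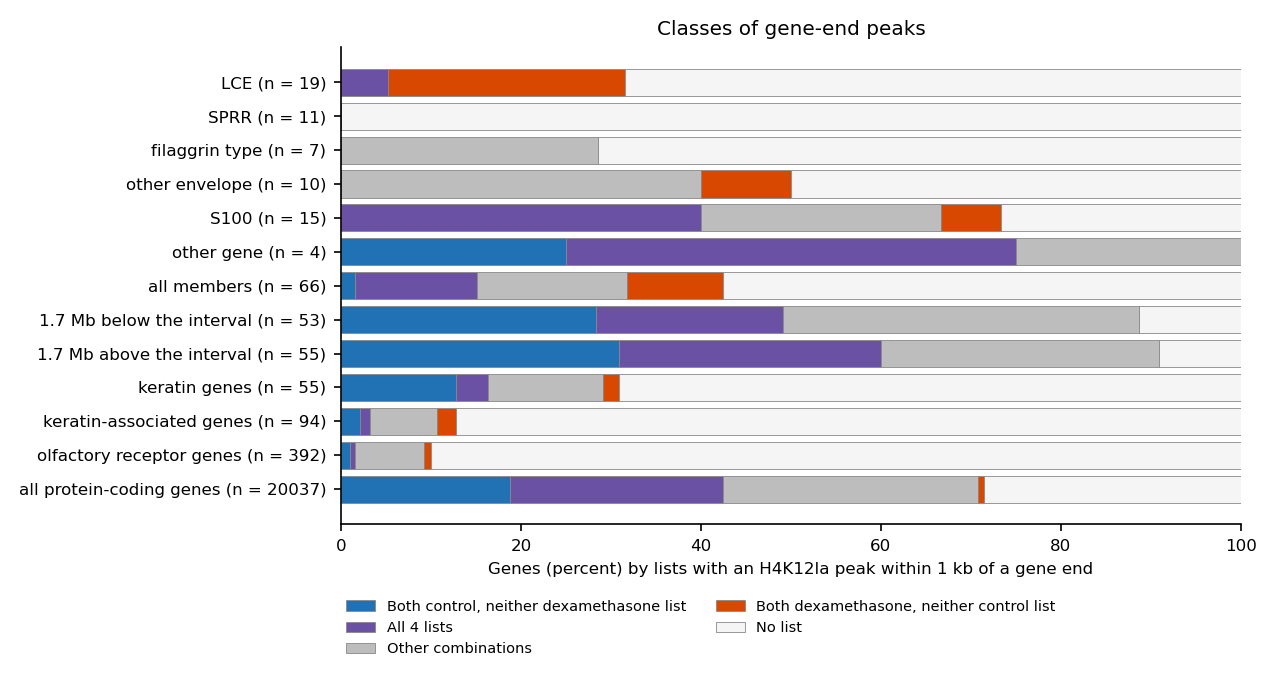
Percent of genes (x axis) by the lists that held an H4K12la peak within 1 kb of a gene end, for the families of the complex, the genes on either side, other clustered families and all protein-coding genes (y axis, number of genes in brackets). The dexamethasone-only class covers 26.3% of LCE genes and 0.764% of all genes, and the SPRR bar holds no list at 100%.

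Merging the peaks of the 4 H4K12la lists gave 104 regions in the interval. Control-only regions numbered 18 (17.3%, against 18% of all 184761 regions), dexamethasone-only regions 13 (12.5%, against 3.11%) and regions in all 4 lists 16 (15.4%, against 15.9%). All 13 dexamethasone-only regions lay in the core, 7 of them in a gene, with heights of 13 to 27 and a median distance of 240 bp between the summits of the replicates. The core's 9 control-only regions, with heights of 13 to 42, lay outside genes and 6 of them in the filaggrin-type stretch. The highest, at 152473833 to 152474677, had 42 and 34 and lay 36126 bp from LCE5A. The dexamethasone-only count was 25 without dexamethasone replicate 1 and 29 without replicate 2, since the definition then asks for fewer lists, and 2 with peaks of height 20 or more.

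Counted more loosely, 36 of the core's 56 regions (64.3%) were in a dexamethasone list and no control list, against 19.2% of all regions, and 11 (19.6%) in a control list and no dexamethasone list, against 43.1%. Of the 36, 14 were in dexamethasone replicate 1 alone and 9 in replicate 2 alone. In the core the control replicates shared more of their peaks than the dexamethasone replicates did. Control replicate 2 met 16 of the 18 core peaks of control replicate 1, and dexamethasone replicate 2 met 17 of the 35 core peaks of replicate 1. In the other direction the numbers were 17 of 19 in control and 17 of 27 in dexamethasone libraries. The lists differ in size, and the same shares over whole lists are not given here. Outside the core, both dexamethasone heights lay below both control heights in 12 of 13 regions in all 4 lists, and in the core in 0 of 3, against 39.4% of such regions in all.

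GR peaks in the interval numbered 9, of 294 to 803 bp, and lay mainly over the S100 genes. From S100A6 to NPR1 there were 7, near S100A11 there was 1, and the core held 1. A GR peak lay at an end of 6 members (9.09%), against 32.3% of all genes, and of 0 of the 52 core members. The 6 were S100A6, S100A2, S100A13, S100A1, CHTOP and ILF2. S100A2 had 2 GR peaks, at 153565550 to 153566223 and 153566361 to 153566721, the first with its centre 42 bp from the transcription start. The GR peak at 153633790 to 153634513 lay between S100A13 and CHTOP with its centre 85 bp from the CHTOP start, and that of ILF2 spanned 153671040 to 153671724. A further peak lay inside S100A16, at 153608954 to 153609247, 255 bp from a start of that gene.

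All 9 GR peaks overlapped H4K12la peaks of both control libraries, with heights of 30 to 269, and 7 and 6 overlapped peaks of the dexamethasone libraries. The same shares over all 8065 GR peaks are not given here, so these counts do not set the interval apart. The 2 GR peaks that met control H4K12la peaks alone were that of ILF2 and that of the core. The latter, at 152328801 to 152329261, lay 3562 bp upstream of FLG, with H4K12la heights of 30 and 35 in control. None of the 13 dexamethasone-only regions met a GR peak. The share of all 5744 dexamethasone-only regions that met one is not given here, so nothing is read from that count. GR had 1 library and thus no replicate check.

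The sequences upstream of the core genes were poor in CG dinucleotides, the sites of DNA methylation. RefSeq (GRCh38.p14) promoter sequences were matched for 62 of the 66 members, not for CRCT1, LCE1B, SPRR2D and SPRR2E, and the 250 bases before the transcription start were used. Peaks of both dexamethasone lists and neither control list overlapped these bases in 2 members, KPLCE and LCE1D, and a GR peak overlapped them in 4. The reverse held in 4 members, S100A16, SNAPIN, ILF2 and NPR1. Peaks of all 4 lists overlapped them in 5, and those of no list in 45. The same counts over all promoters were not made. These bases are shown for KPLCE (chr1:152719272-152719521, plus strand) and LCE1D (chr1:152796471-152796720, plus strand), as the starts with dexamethasone-only peaks. They are also shown for S100A2 (chr1:153565845-153566094, minus strand), CHTOP (chr1:153633816-153634065, plus strand) and ILF2 (chr1:153670994-153671243, minus strand), as starts with GR and high control H4K12la peaks. Each runs 5′ to 3′ up to the start, with CG dinucleotides in capitals.
KPLCE: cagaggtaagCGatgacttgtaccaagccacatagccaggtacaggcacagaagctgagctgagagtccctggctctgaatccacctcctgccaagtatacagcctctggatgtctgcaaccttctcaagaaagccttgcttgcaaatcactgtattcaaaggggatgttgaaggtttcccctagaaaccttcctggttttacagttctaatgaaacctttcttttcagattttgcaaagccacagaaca
LCE1D: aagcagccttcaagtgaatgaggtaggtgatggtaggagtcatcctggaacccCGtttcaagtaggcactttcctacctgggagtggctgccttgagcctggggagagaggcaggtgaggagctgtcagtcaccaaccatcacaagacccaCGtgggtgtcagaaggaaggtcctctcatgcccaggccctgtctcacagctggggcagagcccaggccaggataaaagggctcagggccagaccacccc
S100A2: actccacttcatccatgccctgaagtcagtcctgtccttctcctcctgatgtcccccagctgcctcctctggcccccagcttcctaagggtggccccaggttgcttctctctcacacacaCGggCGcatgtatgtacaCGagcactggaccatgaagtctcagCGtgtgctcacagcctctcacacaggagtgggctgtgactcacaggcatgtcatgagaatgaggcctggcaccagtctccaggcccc
CHTOP: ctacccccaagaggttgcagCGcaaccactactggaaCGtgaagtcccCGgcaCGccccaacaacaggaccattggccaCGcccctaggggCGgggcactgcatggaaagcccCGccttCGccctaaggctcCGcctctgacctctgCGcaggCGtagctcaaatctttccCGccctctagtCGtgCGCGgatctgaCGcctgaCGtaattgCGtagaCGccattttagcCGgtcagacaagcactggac
ILF2: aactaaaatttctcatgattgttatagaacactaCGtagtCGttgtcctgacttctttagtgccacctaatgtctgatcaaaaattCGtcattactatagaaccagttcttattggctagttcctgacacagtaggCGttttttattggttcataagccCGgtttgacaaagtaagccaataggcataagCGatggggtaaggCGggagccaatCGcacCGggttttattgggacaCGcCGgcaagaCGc
KPLCE has 1 CG dinucleotide, LCE1D 2 and S100A2 4, whereas CHTOP has 20 and ILF2 12. The ratio of observed to expected CG was 0.0751, 0.0931 and 0.192 in KPLCE, LCE1D and S100A2, and 0.855 and 1.01 in CHTOP and ILF2. Its median was 0.104 in LCE, 0.074 in SPRR, 0.076 in filaggrin-type and 0.192 in S100 genes, 0.113 over all 62 members and 0.735 over 15843 protein-coding genes. Of S100 genes, S100A6 (0.803), S100A13 (0.838) and S100A11 (0.741) were above that last value. The S100A2 start therefore had GR peaks and the highest control H4K12la of the interval with few CG dinucleotides. Over all genes the median was 0.424 for 113 dexamethasone-only, 0.825 for 3092 control-only and 0.397 for 4268 genes with no end peak in any list.

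**Figure D5:**
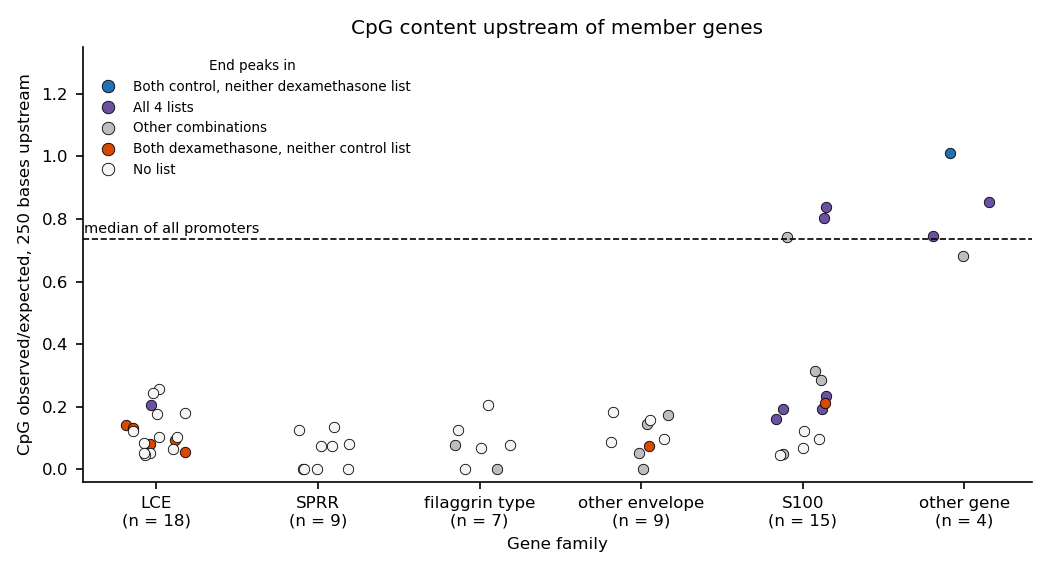
Ratio of observed to expected CG dinucleotides in the 250 bases upstream of the start (y axis) by gene family (x axis, number of genes in brackets), 1 point per gene, coloured by the lists with an end peak. The dashed line is the median over 15843 genes (0.735). All LCE, SPRR, filaggrin-type and other envelope genes lie below it, as do the dexamethasone-only members.

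Short motifs of epidermal promoters were searched on both strands of the same 250 bases. The letters TATAAA, on which the core transcription machinery assembles at many tissue-specific genes, were found in 30 of 62 members (48.4%), against 9.35% of all promoters, with 8 of 9 SPRR and 9 of 18 LCE genes. The letters TGAGTCA, bound by AP-1 factors, were found in 10 members (16.1%), against 3.14%, 5 of them SPRR genes. The letters AGAACA, found in glucocorticoid response elements, were in 6 members (9.68%), against 9.42%. Involucrin (chr1:152908296-152908545, plus strand) and SPRR1A (chr1:152983831-152984080, plus strand) are shown with TATAAA and TGAGTCA in capitals, as envelope genes with both motifs. Neither had an H4K12la or GR peak over these bases.
IVL: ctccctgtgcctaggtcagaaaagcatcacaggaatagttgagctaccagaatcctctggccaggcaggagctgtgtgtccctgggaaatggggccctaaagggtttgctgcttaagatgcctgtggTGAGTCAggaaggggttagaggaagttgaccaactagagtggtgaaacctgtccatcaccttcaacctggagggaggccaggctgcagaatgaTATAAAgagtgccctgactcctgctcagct
SPRR1A: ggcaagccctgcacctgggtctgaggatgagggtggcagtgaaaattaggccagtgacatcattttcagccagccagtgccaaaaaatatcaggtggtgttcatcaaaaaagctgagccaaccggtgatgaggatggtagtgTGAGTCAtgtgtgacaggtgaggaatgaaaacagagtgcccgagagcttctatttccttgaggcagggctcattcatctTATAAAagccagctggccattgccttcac
In IVL the motifs began at -30 and -123, counted back from the base before the start, and in SPRR1A at -29 and -108. A match gives letters only and shows no binding.

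Counts for the surrounding genes and for other clustered families are given side by side, without a test. In the 1.7 Mb below the interval the control lists held 176 and 147 peaks and the dexamethasone lists 81 and 70, a ratio of 0.467, and in the 1.7 Mb above it 168 and 146 against 69 and 60, a ratio of 0.411. Neither side held a dexamethasone-only gene among 53 and 55 genes. Of 94 keratin-associated genes 2 (2.13%) were dexamethasone-only, of 55 keratin genes 1 (1.82%) and of 392 olfactory receptor genes 3 (0.765%), against 0.764% of all genes. At that share, finding none among 53 or 55 genes does not set the 1.7 Mb sides apart from all genes. End peaks were listed for 15 and 17 olfactory receptor genes in control libraries and, after dexamethasone, 23 and 17. For the 52 core members the numbers were 2 and 2 against 12 and 10.

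Envelope and keratinocyte genes outside the interval were looked up in the same way. Of 28 such genes, 6 were control-only (21.4%, against 18.8% of all genes), 0 dexamethasone-only (against 0.764%) and 1 in all 4 lists (3.57%, against 23.6%). The first 2 counts do not set these genes apart from all genes. End peaks were listed for 12 and 13 genes in control libraries (42.9% and 46.4%, against 63.4% and 63.3% of all genes). After dexamethasone they were listed for 6 and 2 (21.4% and 7.14%, against 39.7% and 33.1%). EVPL, the envoplakin gene, had 50 and 47 in control libraries and, after dexamethasone, 31 and 24, and was the gene in all 4 lists. TGM1, the transglutaminase that cross-links the envelope, had 45 and 45 in control and 30 in dexamethasone replicate 1 only. PPL, the periplakin gene, had 25 and 21 and PRDM1, a repressor active in keratinocyte differentiation, 33 and 34, both in control alone.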

How the data were processed

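The authors deposited 1 peak list for each library. The submitters' processing notes name fastp 0.19.6, Bowtie2, deepTools and GRCh38, and no label or header names the peak caller, its options or any control library. Each H4K12la peak has a position, a length, a summit and a signal in whole numbers, which the authors deposited without a header. That signal was read as the pileup height at the summit, on a scale not adjusted for depth. GR peaks have positions alone.

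Analysis was limited to the autosomes, X and Y, and an overlap of 1 bp counted. H4K12la peaks of all lists that shared 1 bp made 1 merged region. RefSeq (GRCh38.p14) gave the gene positions, and its promoter sequences gave strand and starts (the outermost start among those sequences for each gene). In some members, SPRR2G, SPRR2B and S100A8 among them, that start lies well inside the gene span. Members and gene lists were chosen with earlier results of these data known, and the borders of the core and the 2 promoters shown for their motifs after values were seen. Genes named are all control-only or dexamethasone-only members, those with a GR peak at an end, the 10 with the highest mean percentile rank in all 4 lists (9 existed), those with peaks in dexamethasone lists alone and 10 fixed genes. CRNN, SNAPIN, HRNR and others were named after their values were seen. No comparison was tested, since the interval was chosen on it, and 2 against 2 libraries cannot give an exact permutation p below 0.333. The code for the calls was run on simulated lists over 20037 genes. It put 200 of 200 planted genes in their class and called 0 other genes. How often calls are wrong in the real lists cannot be read from that run, since dexamethasone-only peaks there are low and depth is unknown. Python 3.11.15, numpy 2.4.6, pandas 2.3.3 and matplotlib 3.10.9 were used.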

Additional observations from a re-analysis of the deposited data

How the results depend on the processing

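No paired analysis was possible because the labels do not say that equal replicate numbers link cultures, and no result here comes from a test. Leaving out each replicate in turn gave peak ratios of 0.865 to 1.05, 22 to 27 control-only regions, 13 to 29 dexamethasone-only regions, 1 to 3 control-only members and 7 to 10 dexamethasone-only members. A height of 20 or more gave a peak ratio of 0.654, 2 dexamethasone-only regions and 1 dexamethasone-only member, and a height of 30 or more gave 0.15, 0 and 0, with 9 control-only members. Class shares of all genes and all regions are given for the main setting only, so counts under other settings have no such value beside them. With the 67582 highest peaks of each list the ratio was 1.24, with 10 control-only regions, 8 dexamethasone-only regions and 4 dexamethasone-only members. As shares of the lists the ratio was 1.53. The ratio passed 1 in these last 2 settings and without dexamethasone replicate 2, and the cause was not tested. With windows of 0 bp there were 5 control-only members, 3 dexamethasone-only members and 3 members with a GR peak, with windows of 5 kb 0 control-only members, and around the transcription start 3. Requiring both libraries' peaks in 1 merged region, an alternative chosen after seeing the data, gave 5 dexamethasone-only members. The other settings of merging, cover, summit and window stayed within 1.5 times the main counts. The dexamethasone-only regions had heights of 13 to 27 with a median of 17, against medians of 23 and 24 over the dexamethasone lists, and low peaks and unknown depth limit these calls.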

Other observations

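Among 1346 windows of 1.7 Mb with at least 20 control peaks, the median number of control peaks was 77.5, and 29.7% of windows had fewer than the 55.5 of the interval. With peaks of every height, the median ratio of dexamethasone to control peaks was 0.615, with 0.426 and 0.884 at the 10th and 90th percentiles. A ratio at or above the interval's 0.955 was found in 90 windows (6.69%). For peaks of height 20 or more the interval's ratio was 0.654, but no window ratios are given at that height to set beside it. The interval was chosen from the same lists, and these values describe where it lies among the windows.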
